A study of Xenopus laevis with 8 samples.

Results

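Neuralised animal caps of Xenopus laevis that had received wnt3a and a morpholino against lrig3 were compared with caps that had received the neuralising factor chordin alone. An animal cap is the roof of the blastula, ectoderm that forms epidermis in culture unless it is given other signals. The study has 4 groups: caps injected with chordin, wnt3a and the lrig3 morpholino (morpholino caps), caps injected with chordin and wnt3a (wnt3a caps), caps injected with chordin (chordin caps) and uninjected caps. All groups but the uninjected one therefore carried chordin. Injections were made into the animal pole of 2-cell embryos, caps were cut at stage 9 and, per the series text, cultured to stage 15. The suffixes .L and .S mark the 2 homeologous copies of a gene in this duplicated genome, and whether the probes of one copy also bind the other was not tested. Each group had 2 arrays, so the comparison takes 4 of the 8 arrays. All 22000 probe sets that passed a filter on low signal, of 32539 without the manufacturer's controls, were tested, and they cover 8823 gene symbols. The labels used here give no dose of message or morpholino, and no caps with a control morpholino were analysed here. They do not say whether the replicates came from separate batches of embryos, and the spread that enters the p-values is that between these arrays alone, which may be technical.

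Chordin binds and inactivates bone morphogenetic proteins (BMPs), which directs ectoderm towards neural tissue of anterior character. Wnt ligands, acting through beta-catenin, give neural tissue posterior character and, where BMP signalling is reduced but not absent, induce the neural crest at the border of the neural plate. The crest is a migratory population that forms pigment cells, peripheral neurons and much of the face skeleton. Lrig3 spans the cell membrane and carries leucine-rich repeats and immunoglobulin-like domains on its outer side. Morpholinos are synthetic antisense oligomers that stop a message from being translated or spliced. The comparison asks which of the changes that Wnt brings about in neuralised caps are seen when Lrig3 is reduced. The wnt3a caps are given beside it, and the difference between morpholino and wnt3a caps was tested in its own right.

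The array signals are linear intensities with close to the same trimmed mean on each array. Median signals lay between 96.1 and 114, and the highest negative control, taken here as the background of an array, lay between 19.5 and 30.8. With 2 arrays a group, their number limits the precision, and an exact two-sided permutation test of 2 against 2 arrays cannot go below p = 0.333. All p-values below are Benjamini-Hochberg adjusted p-values from limma, a linear model with a moderated spread, fitted to all 8 arrays, and changes are differences of log2(signal + 5.22), which understate the change of dim genes. A gene was called, and is said to have risen or fallen, where its adjusted p was below 0.05. Where a gene was at background on each array of its dimmer group, the fold is a lower bound and is given as "at least".

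Some arrays stood apart. The poly-A spike-in controls, which are added to the RNA, had geometric mean signals of 922 and 811 on the morpholino arrays, against 483 and 428 on the chordin arrays. They were 472 and 414 on the wnt3a arrays and 1001.5 and 542 on the uninjected arrays, so uninjected replicate 1 was the highest. With the arrays scaled to these controls the median log2 change of all probe sets was -0.88, against 0.02 as deposited, so changes under that scaling are to be read relative to a shift of that size. The 2 morpholino arrays also differed from each other in mesodermal, ciliary and ionocyte genes, as described with those lists. In ionocyte genes the 2 chordin arrays and the 2 wnt3a arrays differed from each other as well. In the deposited scaling limma called 2504 of 22000 probe sets (11.4%), 1346 higher (6.12%) and 1158 lower (5.26%) in morpholino caps. With the replicate number as a block it called 4726, and scaled to the spike-in controls it called 6286, of which 406 were higher and 5880 lower. Without morpholino replicate 1 the count was 742, without morpholino replicate 2 it was 1526, and without chordin replicates 1 and 2 it was 520 and 524. It was 2165 and 2135 without wnt3a replicates 1 and 2, and 1629 and 1621 without uninjected replicates 1 and 2. In the paragraphs below, counts obtained by leaving out each array follow the order morpholino replicate 1, morpholino replicate 2, chordin replicate 1, chordin replicate 2.

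Between wnt3a and chordin caps limma called 1280 (5.82%). The difference between morpholino and wnt3a caps rests on the same morpholino arrays. Limma called 1077 probe sets there (4.9%), 601 higher (2.73%) and 476 lower (2.16%) in morpholino caps, and 3289 with the replicate block. Without morpholino replicate 1 it called 0, with 4035 of 22000 at an unadjusted p under 0.05, and without morpholino replicate 2 it called 462. It called 50 and 31 without wnt3a replicates 1 and 2, 304 and 343 without chordin replicates 1 and 2, 256 and 259 without uninjected replicates 1 and 2, and 32 when fitted on the 4 arrays of that comparison alone. Statements on that difference below therefore depend most on the shared estimate of spread, on morpholino replicate 1 and on both wnt3a arrays. They depend in part on morpholino replicate 2.

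The injected and targeted messages were read first. Wnt3a.S had signals of 27548 and 25479.8 in morpholino caps and 10956 and 18771 in wnt3a caps, against 2.24 and 0.498 in chordin caps. It was at least 987-fold higher in morpholino than in chordin caps (limma adjusted p = 3.87e-05), and between morpholino and wnt3a caps the log2 difference was 0.89 (SE 0.35, adjusted p = 0.187). Both morpholino arrays were above both wnt3a arrays, so equal wnt3a message in morpholino and wnt3a caps was not shown. Chrd.1.S, which reads chordin, had signals of 156 and 159 in morpholino caps and 100.4 and 291 in wnt3a caps, against 468 and 771 in chordin caps. Its log2 difference between morpholino and chordin caps was -1.90 (SE 0.49, adjusted p = 0.0531, and 0.0230 with the replicate block), so equal chordin message in these groups was not shown. Lrig3.S message had signals of 4787 and 3002 in morpholino caps, 741 and 756 in wnt3a caps and 3191 and 2158 in chordin caps. The morpholino and chordin arrays overlapped (log2 difference 0.53, SE 0.35, adjusted p = 0.360), and morpholino caps were above wnt3a caps by 2.33 (SE 0.35, adjusted p = 0.0246). A morpholino need not lower the level of its target message, so this array does not check that Lrig3 protein was reduced.

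Of 8823 symbols, limma called 542 higher (6.14%) and 524 lower (5.94%) in morpholino than in chordin caps, and the median log2 change was -0.01. The 22 gene lists used here, whose members can belong to more than one, are read against those shares, and the plot of list members called shows them together. Neural crest and plate border genes were the lists called higher most often, and anterior neural and cement gland genes those called lower most often. Between morpholino and wnt3a caps, 2.62% of all symbols were called higher and 2.66% lower. In whole caps, fewer cells of a type and less RNA per cell cannot be told apart.

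**Figure D1:**
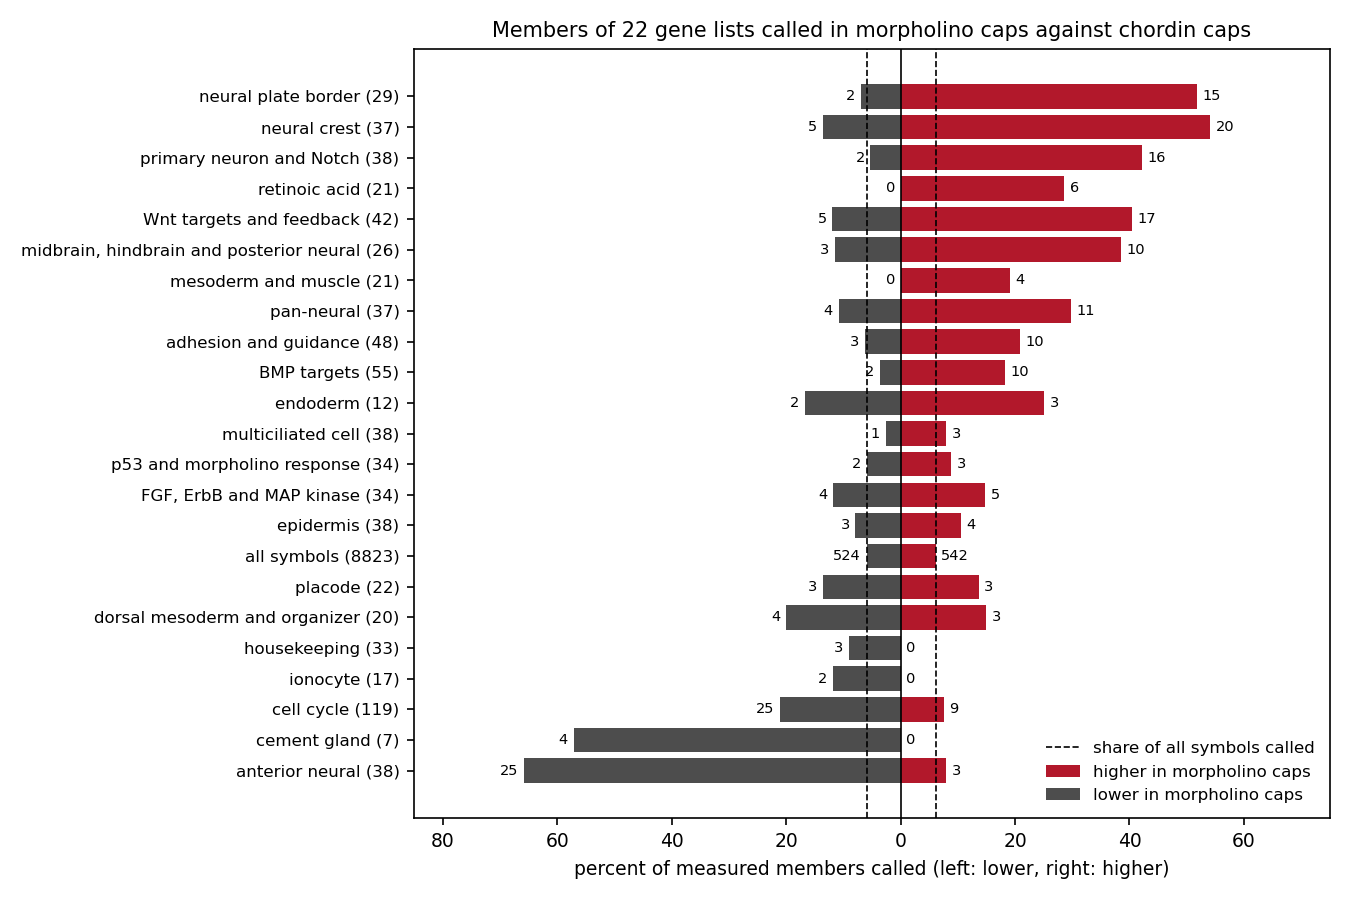
Percent of the measured members of each of 22 gene lists, and of all symbols, called by limma in morpholino caps against chordin caps, with bars to the right for members higher and to the left for members lower in morpholino caps. Numbers at the bars are members called, numbers in brackets members measured, and the dashed lines mark 6.14% and 5.94%, the shares of all symbols called. Plate border and crest lists extend farthest to the right (15 of 29 and 20 of 37), and the anterior neural list farthest to the left (25 of 38).

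Anterior neural genes were low in morpholino caps. Of 38 measured copies, from 29 of 43 genes in the list, 25 fell and 3 rose, with a median log2 change of -2.73. The eye-field regulator six6.L had signals of 22.5 and 1.33 in morpholino caps and 2.53 and 3.48 in wnt3a caps, against 4634 and 7386 in chordin caps, at least 174-fold lower in morpholino than in chordin caps (limma adjusted p = 0.00125). Rax.S, which specifies the eye field, had 11.7 and 13.4 in morpholino caps and 7.59 and 1.06 in wnt3a caps, against 6199 and 4399 in chordin caps, and was at least 156-fold lower (adjusted p = 8.59e-04). Both genes were at background on all 4 arrays that carried wnt3a. The forebrain regulator fezf2.L fell at least 88.8-fold, to 18.6 and 7.58 in morpholino caps against 3716 and 2385 in chordin caps (adjusted p = 3.34e-04). Hesx1.S, a repressor of the anterior neural ridge, fell at least 95.8-fold, with 19.9 and 12.5 in morpholino caps against 6132 and 1679 in chordin caps (adjusted p = 0.00333). The retinal gene vsx1.L and the eye and forebrain gene six3.L fell at least 94.8-fold and 123-fold. Of these 6 genes, none had a morpholino array within the range of its chordin arrays. They were named as largest falls without overlap, so that separation was fixed by the choice and is not a further test. The calls of six6.L, rax.S, fezf2.L, hesx1.S, vsx1.L and six3.L against chordin caps held with any 1 array left out.

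Both copies of otx2, which marks forebrain and midbrain, fell. Otx2.L had signals of 29.7 and 182 in morpholino caps and 27.6 and 114 in wnt3a caps, against 4933 and 5992 in chordin caps (log2 change -6.07, SE 0.88, limma adjusted p = 0.0113), and it was at background on morpholino replicate 1. Otx2.S had 84.5 and 255 in morpholino caps and 121 and 170.0 in wnt3a caps, against 2400.2 and 2504 in chordin caps (-4.01, SE 0.56, adjusted p = 0.00967), above background on every one of these arrays. Pax6.L, a paired-box gene of eye, forebrain and spinal cord, was intermediate, with 2389 and 518 in morpholino caps, 48.3 and 52.6 in wnt3a caps and 8323 and 6139.9 in chordin caps. Its log2 change was -2.68 from chordin caps (SE 0.64, adjusted p = 0.0446), and it was higher than in wnt3a caps by 4.33 (SE 0.64, adjusted p = 0.0256). Pax2.L, which marks the midbrain-hindbrain boundary and the optic stalk, had 229 and 243 in morpholino caps, 22.8 and 69.7 in wnt3a caps and 414 and 635 in chordin caps. It was not called against chordin caps (-1.11, adjusted p = 0.211), but was called lower when scaled to the spike-in controls (-2.01, adjusted p = 0.0172). It was higher than in wnt3a caps by 2.39 (adjusted p = 0.0488). These 2 were the members of the list called in morpholino against wnt3a caps, both higher. These 2 calls also depended on single arrays, as stated above for that difference. The count of such members was 1 with a pseudocount of 1, with no filter, with quantile normalization, with plain moderation of the spread and scaled to the spike-in controls. It was 0 on the 4 arrays of that comparison alone and 2 with the replicate block. Lost calls against chordin caps were those of otx2.L and otx2.S without either chordin array and of pax6.L without either wnt3a array, either chordin array or either uninjected array.

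The 3 anterior list members that rose do not mark the eye field. Emx2.L, a dorsal forebrain regulator, had signals of 637 and 156 in morpholino caps, against 31.3 and 34.1 in chordin caps (3.08, SE 0.64, limma adjusted p = 0.0292). Irx3.L, which marks the neural plate behind the forebrain, had 801 and 961 in morpholino caps against 23.7 and 12.6 in chordin caps (5.28, SE 1.00, adjusted p = 0.0238). Lmo1.S, a LIM-only cofactor, rose by 2.64. When each array was left out, the anterior list had 0, 2, 1 and 0 members higher and 24, 23, 16 and 14 lower. Scaled to the spike-in controls it had 3 higher and 28 lower. The calls that ended were those of emx2.L without morpholino replicate 1 or either chordin array, of irx3.L without either morpholino array or either chordin array and of lmo1.S without morpholino replicate 1 or chordin replicate 2.

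Cement gland genes were also low. The cement gland is the mucus-secreting organ in front of the forebrain, and 4 of 7 measured copies of its genes fell and none rose (median -5.22). Ag1.S, a secreted protein gene of that gland, had signals of 89.3 and 343 in morpholino caps and 706 and 486 in wnt3a caps, against 17146 and 21294 in chordin caps (log2 change -6.72, SE 0.59, limma adjusted p = 0.00200). Ag1.L fell by 3.55 on the log2 scale. Pitx1.L, a regulator of the gland, had 24.6 and 37.2 in morpholino caps against 1869 and 2946 in chordin caps (adjusted p = 0.0100). Agr2.L differed between the morpholino arrays, with 57.7 and 1289, against 15161 and 20015 in chordin caps, and its call (adjusted p = 0.0313) was lost with the replicate block (adjusted p = 0.0506). Agr2.S, with 85.7 and 1211 in morpholino and 10704 and 14308 in chordin caps, was not called (adjusted p = 0.0585). Under omission of each array, 3, 5, 2 and 2 members fell, and 3 fell with the block. With any 1 array left out, ag1.S was still called against chordin caps. Calls ended for pitx1.L without morpholino replicate 1 or either chordin array and for agr2.L without either chordin array or either uninjected array.

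Hindbrain and posterior genes were on in morpholino caps. Of 26 measured copies, from 23 of 44 genes of midbrain, hindbrain and spinal cord, 10 rose and 3 fell, with a median log2 change of 3.54. Hoxb2.S, a homeobox gene of the hindbrain, had signals of 1176 and 1224 in morpholino caps and 1744 and 2223 in wnt3a caps, against 4.66 and 2.06 in chordin caps, at least 44.9-fold higher in morpholino than in chordin caps (limma adjusted p = 6.97e-05). Hoxa2.L, which patterns hindbrain and the crest that leaves it, had 683 and 293 in morpholino caps and 477 and 447 in wnt3a caps, against 0.512 and 0.987 in chordin caps, at least 16.9-fold higher (adjusted p = 5.37e-04). Hoxa2.S was at least 28.1-fold higher (adjusted p = 0.00105). The 3 copies were at background in chordin caps and were not called between morpholino and wnt3a caps (log2 differences of -0.71, -0.04 and 0.26). The calls of hoxb2.S, hoxa2.L and hoxa2.S against chordin caps held with any 1 array left out.

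Gbx2, a homeobox gene that marks the anterior hindbrain and responds to Wnt at the plate border, was among the 10 largest rises. The posterior list holds it as gbx2, but its copies are named gbx2.1 and gbx2.2 here. The counts of that list therefore leave them out. Gbx2.2.L had signals of 978 and 1929.6 in morpholino caps and 399 and 514 in wnt3a caps, against 3.62 and 6.57 in chordin caps, at least 51.4-fold higher in morpholino caps (limma adjusted p = 2.62e-04). Gbx2.1.S was at least 43.6-fold higher (adjusted p = 0.00464), with 797 and 1705 in morpholino caps and 1.05 and 17.0 in chordin caps. Every morpholino array was above every wnt3a array for both. These differences were called with the replicate block (adjusted p = 0.0135 for gbx2.2.L and 0.0132 for gbx2.1.S) and not without it (adjusted p = 0.0597 and 0.165). Against chordin caps, gbx2.2.L and gbx2.1.S kept their calls whichever array was left out.

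The caudal-type genes, which act at the posterior end of the axis, differed between replicates. Cdx4.L had signals of 5425 and 300.2 in morpholino caps and 1068 and 169 in wnt3a caps, against 10.3 and 6.83 in chordin caps, at least 48.0-fold higher in morpholino caps (limma adjusted p = 0.0341). Replicate 1 was the higher array in both groups that carried wnt3a. Cdx2.L had 2857 and 272 in morpholino caps, against 2.81 and 28.8 in chordin caps (5.75, SE 1.26, adjusted p = 0.0347). The 3 copies that fell were en1.L, a gene of the midbrain-hindbrain boundary, with 16.9 and 10.7 in morpholino and 113 and 117 in chordin caps, and both copies of mab21l2, a gene of eye and midbrain (-4.39 and -4.75). Leaving out any 1 array ended no call against chordin caps for mab21l2.L. Calls were lost for cdx4.L and cdx2.L without morpholino replicate 1, either chordin array or either uninjected array, for en1.L without either morpholino array or either chordin array and for mab21l2.S without chordin replicate 1. After dropping each array in turn, the list had 4, 13, 3 and 5 members higher and 2, 2, 1 and 2 lower, and without either uninjected array 6 higher. Scaled to the spike-in controls, 6 were higher and 6 lower.

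**Figure D2:**
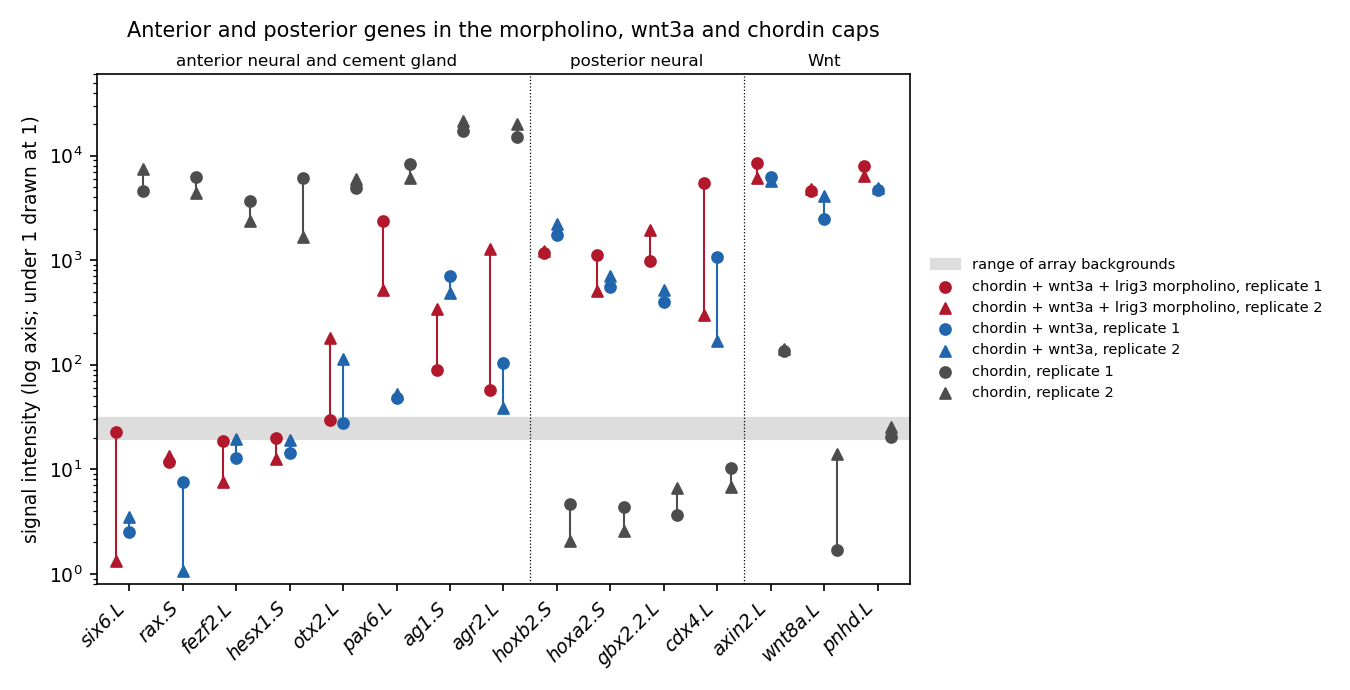
Signal intensity on a log axis for anterior neural and cement gland genes, posterior neural genes and Wnt genes, with circles for replicate 1, triangles for replicate 2, and morpholino, wnt3a and chordin caps from left to right at each gene. The grey band spans the array backgrounds (19.5 to 30.8). Six6.L, rax.S, fezf2.L and hesx1.S are in or under the band in morpholino and wnt3a caps, pax6.L lies between wnt3a and chordin caps in morpholino caps, and hoxb2.S, hoxa2.S, gbx2.2.L and cdx4.L are in or under the band in chordin caps.

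Wnt feedback genes rose. Of 42 measured copies, from 32 of 50 genes in the list, 17 rose and 5 fell, with a median log2 change of 1.34, and 1 of those that rose is the injected wnt3a.S. Axin2.L, a feedback inhibitor of beta-catenin signalling, had signals of 8512 and 6135 in morpholino caps and 6179.7 and 5759 in wnt3a caps, against 135 and 139.9 in chordin caps (log2 change 5.66, SE 0.23, limma adjusted p = 7.81e-05). Sp5.L, a zinc-finger target of the pathway, had 2393 and 3053 in morpholino caps and 5269 and 4863 in wnt3a caps, against 46.7 and 46.7 in chordin caps (5.7, SE 0.19, adjusted p = 4.47e-05). Both were far above every chordin array, and sp5.L was lower in morpholino than in wnt3a caps (log2 difference -0.90, adjusted p = 0.0481). It was the 1 list member called lower than in wnt3a caps. That count was 0 with a pseudocount of 1, with no filter, with plain moderation of the spread and on the 4 arrays of that comparison alone. It was 2 with the replicate block and 12 scaled to the spike-in controls. The call of sp5.L against wnt3a caps also depended on single arrays, as stated above for that difference. Kremen2.S, a receptor of the antagonist Dkk, was at least 8.97-fold higher than in chordin caps (197 and 282 in morpholino caps, 0.631 and 6.26 in chordin caps). Notum.L, a secreted Wnt deacylase, had 203 and 167 in morpholino and 100.3 and 78.5 in chordin caps and was called with the replicate block (adjusted p = 0.0250) but not without it (adjusted p = 0.0554). With any 1 array left out, axin2.L, sp5.L and kremen2.S were still called against chordin caps.

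Wnt8a.L and pnhd.L were the largest rises after the injected message. Wnt8a.L, a Wnt ligand of the ventrolateral mesoderm, had signals of 4612 and 4777 in morpholino caps and 2449 and 4151 in wnt3a caps, against 1.68 and 14.0 in chordin caps, at least 175-fold higher in morpholino caps (limma adjusted p = 3.87e-04). Pnhd.L (pinhead, a secreted protein of the early Wnt response) had 7993 and 6451 in morpholino caps and 4737 and 4882 in wnt3a caps, against 20.4 and 25.6 in chordin caps (8.00, SE 0.23, adjusted p = 3.87e-05). Sp5l.S, a relative of sp5, was highest in morpholino caps, with 13538 and 6591, against 1171 and 912 in wnt3a caps and 1932 and 1122 in chordin caps. It was higher by 2.68 than in chordin caps (adjusted p = 0.0171) and by 3.19 than in wnt3a caps (adjusted p = 0.0238). Ccnd1.L (cyclin D1) had 10284 and 9486 in morpholino caps, 3444 and 4116 in wnt3a caps and 9573 and 9088 in chordin caps, above wnt3a caps by 1.39 (adjusted p = 0.0142) and not called against chordin caps (0.08, adjusted p = 0.733). The calls of wnt8a.L and pnhd.L against chordin caps held with any 1 array left out. The calls that ended were those of sp5l.S without morpholino replicate 1 or either chordin array.

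Those that fell include tcf7l1.L, a repressor of Wnt targets that maintains anterior neural tissue (706 and 841 in morpholino caps, 2795 and 3203 in chordin caps, limma adjusted p = 0.0102). The secreted Wnt antagonist frzb.L fell at least 12.7-fold, to background in morpholino caps (8.25 and 9.69) against 351 and 502 in chordin caps. Its relative sfrp2.S had a log2 change of -0.78, lgr4.S, an R-spondin receptor, -1.54, and ccnd1.S -0.92. Calls ended for tcf7l1.L without morpholino replicate 1 or either chordin array, for frzb.L without chordin replicate 2, for sfrp2.S and lgr4.S without either morpholino array, either chordin array or either uninjected array and for ccnd1.S without either chordin array. With each array left out, the Wnt list had 11, 18, 10 and 10 members higher and 2, 4, 1 and 0 lower. The counts were 20 higher and 8 lower with the replicate block and 11 higher and 9 lower scaled to the spike-in controls.

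Plate border genes rose against chordin caps, and 1 of them was called between morpholino and wnt3a caps, as higher. With the replicate block 2 were called higher and 1 lower than in wnt3a caps. Scaled to the spike-in controls 0 were higher and 8 lower than in wnt3a caps. Of 29 measured copies, from 19 of 26 genes, 15 rose and 2 fell, with a median log2 change of 2.2. Pax3.S, a paired-box gene of the border and dorsal neural tube, had signals of 1766 and 1858 in morpholino caps and 773 and 1258 in wnt3a caps, against 5.92 and 0.696 in chordin caps, at least 67.7-fold higher in morpholino caps (limma adjusted p = 1.89e-04). Msx2.L had 4428 and 3249.6 in morpholino caps and 3429.9 and 4356 in wnt3a caps, against 83.9 and 171 in chordin caps (4.92, SE 0.39, adjusted p = 0.00123). The homeobox gene msx1.L, like msx2 a target of BMP and Wnt at the border, had 7473 and 7227 in morpholino caps and 8079 and 7768 in wnt3a caps, against 679 and 659.9 in chordin caps (3.45, SE 0.11, adjusted p = 3.87e-05). For these 3 genes the chordin arrays were below all others, and morpholino and wnt3a caps were not called apart (log2 differences of 0.87, -0.03 and -0.11). Leaving out any 1 array ended no call against chordin caps for pax3.S, msx2.L and msx1.L.

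Zic1.S, a zinc-finger gene that acts with pax3 to start the crest programme, had 12569 and 15904 in morpholino caps, 6114 and 10227 in wnt3a caps and 2135 and 1484 in chordin caps (2.99, SE 0.34, limma adjusted p = 0.00529). Tfap2a.L, an AP2 factor of border and epidermis, had 5091 and 5952 in morpholino caps and 7618 and 7557 in wnt3a caps, against 388 and 777 in chordin caps (3.31, adjusted p = 0.00198). Irx1.L rose by 5.68 (adjusted p = 5.37e-04). Irx1.S, the 1 list member called between morpholino and wnt3a caps, was higher in morpholino caps (1482 and 1154) than in wnt3a caps (414 and 568) by 1.42 (adjusted p = 0.0292). The 2 members that fell were copies of hes1, a repressor that keeps progenitors undifferentiated, with 2667 and 1386 in morpholino and 7618 and 8832 in chordin caps for hes1.L (adjusted p = 0.0102). When each array was left out, 13, 14, 13 and 14 members rose and 2, 4, 1 and 1 fell. Scaled to the spike-in controls 13 rose and 5 fell. Pax3.L had 1847 and 3626 in morpholino caps, 5769.8 and 7734 in wnt3a caps and 4197 and 7164 in chordin caps. Its change of -1.08 was called with the replicate block (adjusted p = 0.00633) and not without it (adjusted p = 0.128), although 3 of its 5 probe sets were. With any 1 array left out, zic1.S, tfap2a.L, irx1.L and irx1.S were still called against chordin caps. Sensitive to 1 array were the calls of hes1.L without either chordin array.

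Neural crest genes rose against chordin caps, and 10 of them were lower than in wnt3a caps. Of 37 measured copies, from 26 of 38 genes, 20 rose and 5 fell in morpholino against chordin caps, with a median log2 change of 2.18. Against wnt3a caps 10 of the 37 were lower and none higher. Snai2.L, the crest regulator Slug, had signals of 1046 and 1015 in morpholino caps and 4602 and 4592 in wnt3a caps, against 8.33 and 9.07 in chordin caps. It was at least 38.6-fold higher in morpholino than in chordin caps (limma adjusted p = 3.87e-05), and its log2 difference from wnt3a caps was -2.15 (SE 0.19, adjusted p = 0.00983). The 3 groups did not overlap. Foxd3.L, a forkhead factor of the premigratory crest, had 1003 and 2553 in morpholino caps and 6763 and 7027 in wnt3a caps, against 20.6 and 19.7 in chordin caps. It was at least 59.8-fold higher than in chordin caps (adjusted p = 8.00e-04) and differed from wnt3a caps by -2.10 (SE 0.43, adjusted p = 0.0441). For foxd3.S the change against chordin caps was 6.08 (adjusted p = 0.00193), and the difference of -2.11 from wnt3a caps was called with the replicate block (adjusted p = 0.0473) and not without it (adjusted p = 0.0722). The calls of snai2.L, foxd3.L and foxd3.S against chordin caps held with any 1 array left out.

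The SoxE genes, which specify the crest and later its derivatives, were placed the same way. Sox8.L had signals of 2676 and 2009 in morpholino caps and 8798 and 8854 in wnt3a caps, against 152 and 242 in chordin caps. Its log2 difference was 3.56 from chordin caps (SE 0.31, limma adjusted p = 0.00156) and -1.93 from wnt3a caps (SE 0.31, adjusted p = 0.0270). Sox9.L had 1358 and 967 in morpholino caps and 2821 and 3062 in wnt3a caps, against 185 and 177 in chordin caps, with differences of 2.63 from chordin caps (adjusted p = 0.00333) and -1.35 from wnt3a caps (adjusted p = 0.0430). Both were intermediate on each morpholino array. Sox10.L, the latest of the 3 to act, had 275 and 76.4 in morpholino caps and 1197 and 1965 in wnt3a caps, against 1.07 and 0.777 in chordin caps. It was at least 5.63-fold higher than in chordin caps (adjusted p = 0.0104) and differed from wnt3a caps by -3.35 (SE 0.67, adjusted p = 0.0430). Against chordin caps, sox8.L and sox9.L kept their calls whichever array was left out. Lost calls were those of sox10.L without either chordin array.

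Genes of crest delamination and migration lay in the same order. Twist1.L, a helix-loop-helix factor of migrating crest, had 59.3 and 60.6 in morpholino caps and 598 and 600.5 in wnt3a caps, against 7.43 and 2.16 in chordin caps. It was at least 2.43-fold higher than in chordin caps (limma adjusted p = 0.0165), with a log2 difference of -3.21 from wnt3a caps (adjusted p = 0.0238). The ETS factor ets1.S, which acts in crest delamination, had 155 and 205 in morpholino caps and 1480.2 and 1126 in wnt3a caps, against 3.57 and 12.7 in chordin caps, with a difference of -2.82 from wnt3a caps (adjusted p = 0.0382). Pcdh8l.S, a protocadherin, had 137 and 79.7 in morpholino caps and 902 and 868 in wnt3a caps, against 13.4 and 14.3 in chordin caps, with a difference of -3.02 from wnt3a caps (adjusted p = 0.0170). Each of the 3 was above background on both morpholino arrays and at background on both chordin arrays. Tfap2b.L was at least 26.3-fold higher than in chordin caps (adjusted p = 7.41e-04), and its difference of -1.65 from wnt3a caps did not pass (adjusted p = 0.0775). Snai2.S was above chordin caps on both arrays, with 45.8 and 51.0 in morpholino, 337 and 238 in wnt3a and 0.858 and 17.7 in chordin caps, and was not called (adjusted p = 0.108). Leaving out any 1 array ended no call against chordin caps for tfap2b.L. The calls that ended were those of twist1.L without either morpholino array or chordin replicate 2 and of ets1.S and pcdh8l.S without chordin replicate 1.

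The 5 crest list members that fell were both copies of mycn, a growth regulator of neural and crest progenitors (-1.27 and -1.20), id3.L, an inhibitor of helix-loop-helix factors that Xenopus crest progenitors require (-0.58), the guidance ligand sema3a.L (-1.44) and the integrin itgb5.L (-1.71). Of these 5, id3.L had the smallest change, with signals of 7571 and 7527 in morpholino caps against 12393 and 10336 in chordin caps (limma adjusted p = 0.0262). The probe sets of the mycn copies differ only in the suffix of their names, and whether they read the copies apart was not tested. Calls ended for mycn.L and sema3a.L without either morpholino array, either chordin array or either uninjected array, for mycn.S without morpholino replicate 2, wnt3a replicate 2 or either chordin array, for id3.L without either morpholino array or either chordin array and for itgb5.L without morpholino replicate 1 or either chordin array. Under omission of each array, 16, 18, 15 and 15 crest members rose and 1, 1, 0 and 0 fell, and scaled to the spike-in controls 18 rose and 7 fell. Against wnt3a caps the 10 lower members became 0, 5, 5 and 5 with each of those arrays left out, 0 and 0 without wnt3a replicates 1 and 2, and 5 and 5 without uninjected replicates 1 and 2. That count was 2 on the 4 arrays of the comparison alone, 5 with a pseudocount of 1, 13 with the replicate block and 25 scaled to the spike-in controls.

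**Figure D3:**
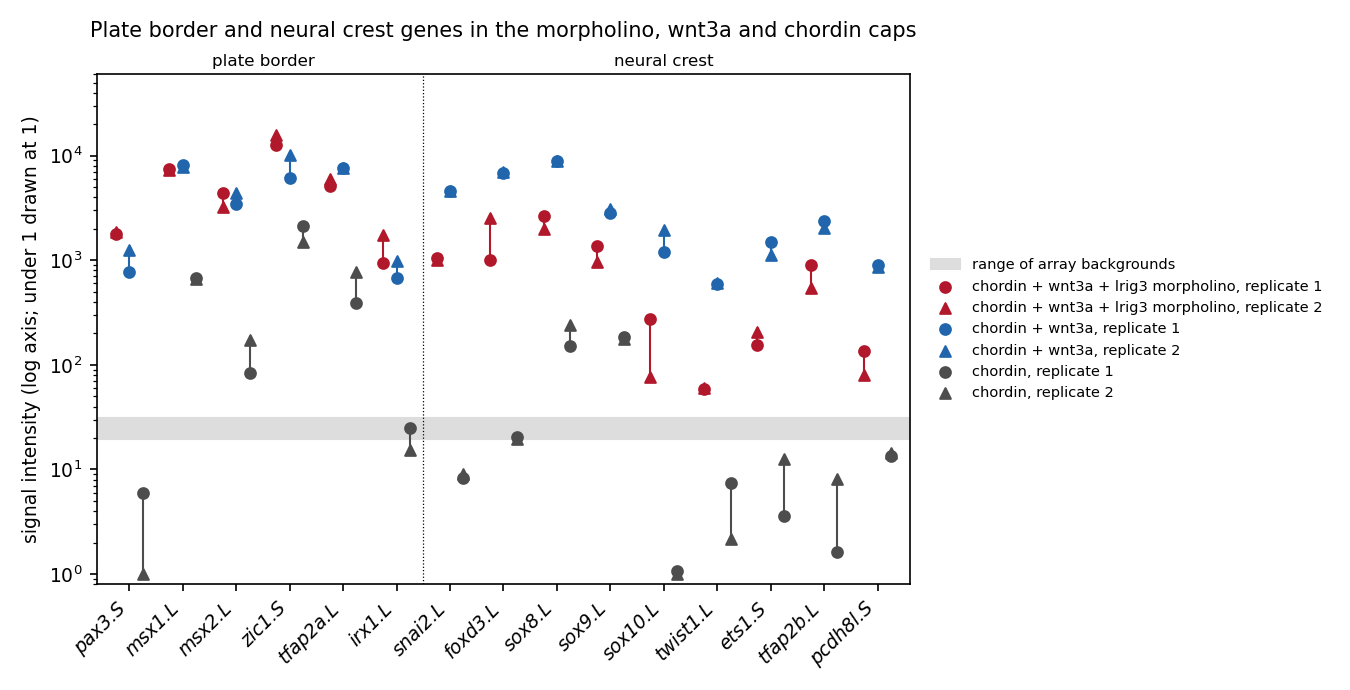
Signal intensity on a log axis for plate border genes (left of the dotted line) and neural crest genes (right), with circles for replicate 1, triangles for replicate 2, and morpholino, wnt3a and chordin caps from left to right at each gene. The grey band spans the array backgrounds (19.5 to 30.8). The morpholino and wnt3a points of the border gene msx1.L lie between 7227 and 8079. Those of the border genes pax3.S and zic1.S are higher in morpholino than in wnt3a caps, and those of tfap2a.L are lower. Crest genes from snai2.L to pcdh8l.S lie between wnt3a and chordin caps in morpholino caps.

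The SoxB1 genes of neural progenitors were not called apart from chordin caps in the deposited scaling and were above wnt3a caps. Of 37 measured copies of pan-neural genes, from 28 of 35 genes, 11 rose and 4 fell against chordin caps, with a median log2 change of 0.22. Against wnt3a caps 12 of 37 were higher and none lower. Sox2.L, a SoxB1 factor that keeps neural progenitors undifferentiated, had signals of 5529 and 4065 in morpholino caps and 314 and 787 in wnt3a caps, against 9627 and 7027 in chordin caps. It was not called against chordin caps (-0.79, SE 0.42, limma adjusted p = 0.262) and was above wnt3a caps by 3.24 (SE 0.42, adjusted p = 0.0216). Scaled to the spike-in controls, sox2.L was called lower than in chordin caps (-1.72, adjusted p = 0.0142). Sox3.S, its close relative, had 10335 and 9546 in morpholino caps and 391 and 1128 in wnt3a caps, against 8987 and 8044 in chordin caps. Its log2 difference was 0.22 from chordin caps (SE 0.43, adjusted p = 0.777) and 3.89 from wnt3a caps (SE 0.43, adjusted p = 0.0168). Sox3.L differed by -0.24 from chordin caps (adjusted p = 0.747) and from wnt3a caps by 3.34 (adjusted p = 0.0216). For each of these copies both morpholino arrays were at least 4 times the higher wnt3a array.

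Foxd4l1.1.S, a forkhead factor of the early neural plate, was highest in morpholino caps, with signals of 532 and 415, against 17.3 and 6.06 in wnt3a caps and 158 and 60.1 in chordin caps. It was above chordin caps by 2.2 (SE 0.54, limma adjusted p = 0.0456) and at least 16.8-fold above wnt3a caps (adjusted p = 0.0168). Zic4.L rose by 4.52 and elavl3.L, an RNA-binding protein gene of new neurons, by 4.52. Zic2.L, which chordin caps already expressed, had 9519 and 9996 in morpholino caps, 4592 and 5729.7 in wnt3a caps and 7374 and 5485 in chordin caps and was not called in either comparison (adjusted p = 0.111 against chordin and 0.0572 against wnt3a caps, the second being 0.0350 with the replicate block). The 4 that fell were both copies of msi1, an RNA-binding protein gene of neural progenitors (-1.50 and -1.51), the intermediate filament gene nes.S (-2.80) and the repressor gene hes7.1.L (-2.83). The adhesion gene ncam1.S was not called (-1.23, adjusted p = 0.143). The call of zic4.L against chordin caps held with any 1 array left out. Less stable were the calls of foxd4l1.1.S without either morpholino array, either chordin array or either uninjected array, of elavl3.L without morpholino replicate 1, of msi1.L without either morpholino array or either chordin array, of msi1.S and nes.S without either chordin array and of hes7.1.L without either morpholino array, either wnt3a array or either chordin array. After dropping each array in turn, 7, 10, 7 and 8 members rose and 3, 2, 0 and 0 fell against chordin caps, and 9 rose and 8 fell scaled to the spike-in controls. Against wnt3a caps 0, 9, 6 and 6 were higher with those arrays left out, 4 and 3 without wnt3a replicates 1 and 2, 7 and 8 without uninjected replicates 1 and 2, 1 on the 4 arrays alone and 8 scaled to the spike-in controls.

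Notch and early neuron genes rose. Of 38 measured copies, from 30 of 45 genes, 16 rose and 2 fell against chordin caps (median 2.03), and 8 were higher and none lower than in wnt3a caps. The hes5 genes, direct Notch targets that hold back neuronal differentiation, made up 7 of the 16. Hes5.1.L had signals of 3230.4 and 1287 in morpholino caps and 248 and 93.3 in wnt3a caps, against 37.4 and 76.5 in chordin caps. It was above chordin caps by 5.11 (SE 0.61, limma adjusted p = 0.00576) and above wnt3a caps by 3.69 (SE 0.61, adjusted p = 0.0293). Hes5.1.S had 1159.8 and 580.2 in morpholino caps and 115 and 103 in wnt3a caps, against 31.8 and 30.5 in chordin caps, with differences of 4.51 from chordin caps (adjusted p = 0.00139) and 2.86 from wnt3a caps (adjusted p = 0.0216). Morpholino caps were the highest group for both copies, and replicate 1 the higher of their arrays. Hes5.5.S and hes5.2.L were above chordin caps by 3.00 and 2.39 and above wnt3a caps by 2.86 and 3.36 (adjusted p = 0.0238 and 0.0229). Against chordin caps, hes5.1.L and hes5.1.S kept their calls whichever array was left out. Sensitive to 1 array were the calls of hes5.5.S without either chordin array and of hes5.2.L without morpholino replicate 1 or either chordin array.

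Dll1.L, the Delta ligand of Notch in prospective neurons, had signals of 3283 and 1189.7 in morpholino caps and 235 and 143 in wnt3a caps, against 1452 and 634 in chordin caps. It was above wnt3a caps by 3.39 (SE 0.57, limma adjusted p = 0.0312), and against chordin caps it was called only with the replicate block (adjusted p = 0.0465, and 0.282 without it). Elavl3.L had 822 and 410.0 in morpholino caps and 115 and 143 in wnt3a caps, against 50.6 and 6.39 in chordin caps (4.52, SE 0.72, adjusted p = 0.0146). Gadd45g.L, a growth arrest gene of the early neuron programme, had 4564 and 2122 in morpholino caps, against 191 and 274 in chordin caps (3.74, adjusted p = 0.00873). The proneural gene neurog2.S was high on 1 morpholino array only, with 605 and 62.7, against 37.8 and 35.8 in chordin caps, and was not called (adjusted p = 0.169). Tubb2b.S, a neuronal tubulin gene, had 4507 and 3864 in morpholino and 4553 and 4973 in chordin caps, with a difference of -0.19 (adjusted p = 0.617). The 2 that fell were the copies of hes1 given with the plate border. Calls were lost for elavl3.L without morpholino replicate 1 and for gadd45g.L without chordin replicate 1. With each array left out, 5, 18, 6 and 7 members rose against chordin caps, 14 scaled to the spike-in controls and 22 with the replicate block, and 2, 2, 1 and 1 fell. Against wnt3a caps 0, 11, 3 and 4 were higher with those arrays left out, 0 and 0 without wnt3a replicates 1 and 2, 2 and 2 without uninjected replicates 1 and 2, and 0 on the 4 arrays alone.

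**Figure D4:**
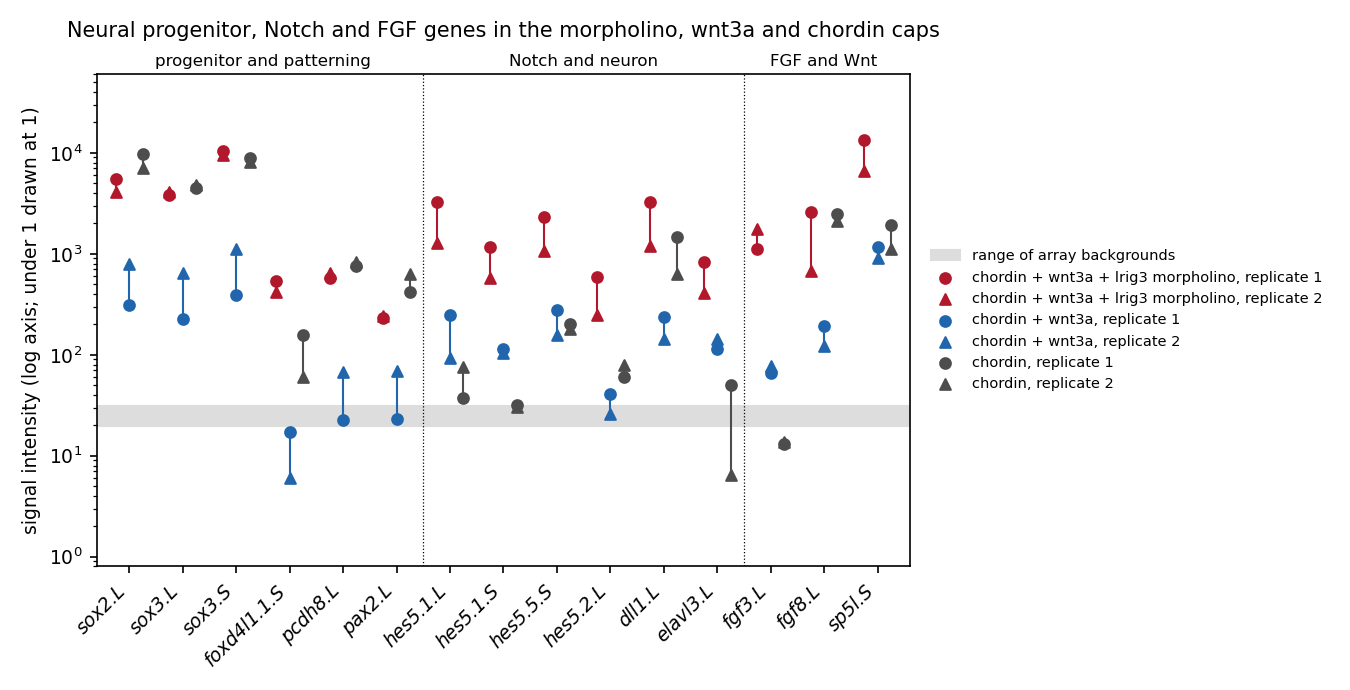
Signal intensity on a log axis for neural progenitor and patterning genes, Notch and neuron genes, and FGF and Wnt genes, with circles for replicate 1, triangles for replicate 2, and morpholino, wnt3a and chordin caps from left to right at each gene. The grey band spans the array backgrounds (19.5 to 30.8). Sox2.L, sox3.L and sox3.S lie near chordin caps in morpholino caps and lower in wnt3a caps, while hes5.1.L, hes5.1.S, hes5.5.S and fgf3.L are highest in morpholino caps.

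The fibroblast growth factor (FGF) ligands fgf3 and fgf8 were higher in morpholino than in wnt3a caps. Of 34 measured copies of FGF, ErbB and MAP kinase genes, from 26 of 52 genes, 5 rose and 4 fell (median -0.08). Fgf3.L, a ligand of the hindbrain, had signals of 1121 and 1755 in morpholino caps and 66.3 and 78.1 in wnt3a caps, against 13.0 and 13.6 in chordin caps. It was at least 52.4-fold higher than in chordin caps (limma adjusted p = 2.60e-04) and above wnt3a caps by a log2 difference of 4.19 (SE 0.32, adjusted p = 0.00699). Fgf8.L, a ligand of the midbrain-hindbrain boundary and of crest induction, had 2608 and 678 in morpholino caps and 193 and 122 in wnt3a caps, against 2497 and 2113 in chordin caps. It was above wnt3a caps by 3.07 (SE 0.61, adjusted p = 0.0430) and not called against chordin caps (-0.78, adjusted p = 0.440). Scaled to the spike-in controls, fgf8.L was called lower than in chordin caps (-1.71, adjusted p = 0.0444). Replicate 1 was the higher morpholino array for fgf8.L and the lower for fgf3.L. With any 1 array left out, fgf3.L was still called against chordin caps.

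The receptor genes split, fgfr4.L rising by 1.40 and fgfr2.L by 1.49 while fgfr3.L had a log2 change of -1.57 and the decoy receptor fgfrl1.L one of -3.19. Dusp6.S, a MAP kinase phosphatase induced by FGF, had 2116 and 1999.8 in morpholino caps, against 689 and 593 in chordin caps (1.68, limma adjusted p = 0.0212). The other copy, dusp6.L, was not called and its arrays overlapped, with 746 and 603 in morpholino and 571 and 723 in chordin caps (0.06, adjusted p = 0.895). Their relative dusp5.S had a log2 change of -2.92. The adaptor frs2.L rose by 0.58. Spry2.L, a feedback inhibitor, was called with the replicate block (adjusted p = 0.0399) and not without it (-1.32, adjusted p = 0.0764). Flrt3.L, a leucine-rich repeat membrane protein that binds FGF receptors, was lower than in wnt3a caps (log2 difference -2.55, adjusted p = 0.0255), with 208 and 353 in morpholino caps, 1531 and 1709.7 in wnt3a caps and 477 and 499.7 in chordin caps. The calls of fgfr4.L and fgfr2.L against chordin caps held with any 1 array left out. The calls that ended were those of fgfr3.L without morpholino replicate 2 or either chordin array, of fgfrl1.L without morpholino replicate 1 or either chordin array, of dusp6.S without either morpholino array or either chordin array, of dusp5.S without morpholino replicate 2, either wnt3a array, either chordin array or either uninjected array and of frs2.L without either morpholino array, either wnt3a array, either chordin array or either uninjected array. When each array was left out, 3, 3, 3 and 3 members rose and 4, 3, 1 and 1 fell against chordin caps. Scaled to the spike-in controls 1 rose and 15 fell, fgfr4.L, fgfr2.L and dusp6.S losing their calls.

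Retinoic acid genes rose where called. Retinoic acid is a further posterior signal of the hindbrain and trunk, and 6 of 21 measured copies rose and none fell (median 0.68). The receptor gene rarg.S had signals of 9156 and 6379.9 in morpholino caps and 2808 and 3375 in wnt3a caps, against 1108 and 958 in chordin caps. It was above chordin caps by 2.88 (SE 0.23, limma adjusted p = 0.00114) and above wnt3a caps by 1.31 (SE 0.23, adjusted p = 0.0316), with no overlap between the 3 groups. Dhrs3.L, which reduces retinal, had 269 and 297 in morpholino caps and 93.9 and 101 in wnt3a caps, against 45.5 and 85.0 in chordin caps, with differences of 2.09 from chordin caps and 1.49 from wnt3a caps (adjusted p = 0.0102 and 0.0441). Crabp2.L, a retinoic acid binding protein, rose by 4.55, although 1 of its 4 probe sets was called. Cyp26a1.L, which degrades retinoic acid, was not called (329 and 184 in morpholino caps, 540.0 and 772 in wnt3a caps, 68.2 and 126 in chordin caps, adjusted p = 0.0781). The calls of rarg.S and dhrs3.L against wnt3a caps also depended on single arrays, as stated above for that difference. These 2 were the list members called higher than in wnt3a caps. That count was 0 on the 4 arrays of that comparison alone. Scaled to the spike-in controls 0 were higher and 6 lower than in wnt3a caps. Against chordin caps, rarg.S and dhrs3.L kept their calls whichever array was left out. The call of dhrs3.L against chordin caps was lost scaled to the spike-in controls (limma adjusted p = 0.0688) and on the 4 arrays of that comparison alone. Calls ended for crabp2.L without either morpholino array or either chordin array. Under omission of each array, 3, 5, 3 and 3 members rose. Scaled to the spike-in controls 3 rose and 3 fell.

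BMP targets of the plate border and some other BMP genes rose. Of 55 measured copies, from 37 of 48 genes, 10 rose and 2 fell (median 0.44), and the rises include both copies of msx1, msx2.L and both copies of tfap2a given above, both copies of the ventral homeobox gene ventx2.1, and the inhibitor smad7.L. Admp.S, a BMP ligand of the organizer, had 348 and 217 in morpholino caps and 73.2 and 80.6 in wnt3a caps, against 19.9 and 4.90 in chordin caps, at least 10.4-fold higher (limma adjusted p = 0.00483). Of the feedback genes szl.L and bambi.L, neither was called, and their morpholino and chordin arrays overlapped, with 6.80 and 1254 in morpholino caps and 6.96 and 369 in chordin caps for szl.L. Bmp2.L was lower than in wnt3a caps (log2 difference -2.44, adjusted p = 0.0260), with 56.1 and 52.4 in morpholino caps, 346 and 292 in wnt3a caps and 17.7 and 31.9 in chordin caps. Id4.S had 149.6 and 202 in morpholino caps, against 869.5 and 1325 in chordin caps (-2.59, adjusted p = 0.00849). Leaving out any 1 array ended no call against chordin caps for admp.S. Less stable were the calls of id4.S without chordin replicate 2. After dropping each array in turn, 8, 11, 7 and 9 members rose and 1, 3, 1 and 0 fell, with the replicate block 4 fell, and scaled to the spike-in controls 7 rose and 9 fell.

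Adhesion and guidance genes rose more often than they fell in the deposited scaling, in 10 and 3 of 48 copies (median 0.23). The fibronectin receptor subunit itga5.L had 566 and 761 in morpholino caps, 1253 and 1836 in wnt3a caps and 22.7 and 75 in chordin caps (3.80, SE 0.50, limma adjusted p = 0.00785). Timp3.L, a metalloprotease inhibitor, rose by 3.55 (adjusted p = 0.00267), the semaphorin co-receptor nrp1.L at least 5.33-fold and the Robo ligand slit1.S by 2.17. Cdh2.L (N-cadherin) was not called, with 3024 and 2412 in morpholino caps, 1811 and 2889 in wnt3a caps and 2907 and 3497 in chordin caps (-0.24, adjusted p = 0.696), although 1 of its 4 probe sets was. Pcdh8.L, a protocadherin of paraxial mesoderm, had 578 and 644 in morpholino caps, 22.3 and 67.5 in wnt3a caps and 751 and 824 in chordin caps, above wnt3a caps by 3.78 (adjusted p = 0.0168), where pcdh8l.S above was lower. The chemokine receptor cxcr4.S was lower than in wnt3a caps (log2 difference -1.32, 2193 and 1922 in morpholino caps, 5291 and 5009 in wnt3a caps, adjusted p = 0.0238). With any 1 array left out, itga5.L and timp3.L were still called against chordin caps. Sensitive to 1 array were the calls of nrp1.L without morpholino replicate 2 or chordin replicate 1 and of slit1.S without morpholino replicate 1 or either chordin array. With each array left out, 6, 8, 5 and 7 members rose and 1, 2, 0 and 0 fell, with the replicate block 16 rose, and scaled to the spike-in controls 5 rose and 16 fell.

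Of 119 measured copies of cell cycle genes, from 84 of 92 genes, 25 fell and 9 rose against chordin caps (median -0.23). Most were not called, and of all symbols 5.94% fell and 6.14% rose. Against wnt3a caps 15 were higher and 3 lower, with 2.62% and 2.66% of all symbols called. On the 4 arrays of that comparison alone 1 was higher and 0 lower. Scaled to the spike-in controls 0 were higher and 22 lower than in wnt3a caps. Cdc45.L, a part of the replicative helicase, had signals of 416 and 431 in morpholino caps and 729.9 and 856 in wnt3a caps, against 1398 and 1429 in chordin caps. Its log2 difference was -1.73 from chordin caps (SE 0.16, limma adjusted p = 0.00198) and -0.89 from wnt3a caps (adjusted p = 0.0329). The clamp loader gene rfc4.L had 678 and 746 in morpholino caps and 1369 and 1431 in wnt3a caps, against 2143 and 1935 in chordin caps (-1.51 from chordin and -0.97 from wnt3a caps, adjusted p = 0.00411 and 0.0307). Both were lowest in morpholino caps. Mcm4.L, a helicase subunit, had a smaller change of -0.79 (adjusted p = 0.0161). Ccna2.L (cyclin A2) was highest in morpholino caps, with 9216 and 8749, against 2782 and 2709.8 in wnt3a caps and 4666 and 4333 in chordin caps, above chordin caps by 1.00 (adjusted p = 0.00361) and above wnt3a caps by 1.71 (adjusted p = 0.00355). The copies of cdc6, which loads the helicase, moved apart: cdc6.L rose by 1.07 and cdc6.S had a log2 change of -1.01 (adjusted p = 0.0157 and 0.0328). The calls of cdc45.L, rfc4.L and ccna2.L against chordin caps held with any 1 array left out. Calls were lost for mcm4.L without either morpholino array or either chordin array, for cdc6.L without morpholino replicate 1 or either chordin array and for cdc6.S without either morpholino array, either chordin array or either uninjected array. When each array was left out, 6, 10, 3 and 3 members fell and 1, 6, 3 and 1 rose. Without uninjected replicates 1 and 2 there were 16 and 16 lower and 5 and 6 higher, and with the replicate block 38 lower and 15 higher. Scaled to the spike-in controls 56 fell and none rose by limma, so the rises of ccna2.L and cdc6.L are relative to the other genes of the same arrays.

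Genes of the p53 and morpholino response were called at 3 higher and 2 lower of 34 copies (median 0.25). That is near the shares of all symbols called, 6.14% higher and 5.94% lower, so the list as a whole did not stand out against chordin caps. Against wnt3a caps 1 of the 34 was higher and 3 were lower, with 2.62% and 2.66% of all symbols called. On the 4 arrays of that comparison alone 0 were higher and 0 lower. Scaled to the spike-in controls 0 were higher and 10 lower than in wnt3a caps. Bax.S, a pro-apoptotic p53 target, had signals of 60.1 and 85.9 in morpholino caps and 327 and 275 in wnt3a caps, against 366 and 300.4 in chordin caps. Its log2 change was -2.13 from chordin caps (SE 0.25, limma adjusted p = 0.00534) and -1.98 from wnt3a caps (adjusted p = 0.0214). Ccng1.L, another p53 target, had 5915 and 6105 in morpholino caps, 10385 and 10442 in wnt3a caps and 10906 and 10142 in chordin caps (-0.81, adjusted p = 0.00636). Tp53inp1.S, with 195 and 156 in morpholino and 71.0 and 64.1 in chordin caps, rose by 1.31 (adjusted p = 0.0353), and plk3.L rose by 1.51. Cdkn1a.L, the p21 gene, was not called (52.8 and 48.5 in morpholino caps, 78.8 and 147 in chordin caps, adjusted p = 0.123). Against chordin caps, bax.S kept its call whichever array was left out. Lost calls were those of ccng1.L without chordin replicate 1, of tp53inp1.S without either morpholino array, either wnt3a array, either chordin array or uninjected replicate 1, of plk3.L without morpholino replicate 1, wnt3a replicate 2, either chordin array or either uninjected array and of hprt1.L without morpholino replicate 1 or either chordin array. Under omission of each array, 1, 4, 1 and 1 rose, without wnt3a replicates 1 and 2 there were 2 and 1, without uninjected replicate 1 there were 2, and with the replicate block 7. The counts of members that fell were 2, 2, 1 and 2 with each array left out, and scaled to the spike-in controls 1 rose and 7 fell. Of 33 housekeeping copies 3 fell and none rose by limma, to be read against the same shares of all symbols. Among those that fell was hprt1.L at -1.34, while odc1.L differed by 0.06. After dropping each array in turn, 1, 2, 1 and 0 fell, and scaled to the spike-in controls 18 fell.

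The markers of other cell types were read for the whole lists. Epidermal genes had 4 of 38 copies higher and 3 lower, with 6.14% of all symbols higher and 5.94% lower, so the list did not clearly stand out. The higher ones were tp63.S, a regulator of basal epidermis, both copies of tfap2a, and cldn1.S, a tight junction gene. The call of cldn1.S was lost with the replicate block (limma adjusted p = 0.0502). The lower ones were krt19.S, klf5.S and dsc3.S, with log2 changes of -3.25, -2.04 and -1.54 (adjusted p = 0.0190, 0.0156 and 0.0312). Not called were grhl3.L (-1.58), grhl3.S (-1.36) and itln1.L (0.19). Tp63.S had 94.2 and 126 in morpholino caps, 353 and 154 in wnt3a caps and 15.8 and 28.4 in chordin caps (2.1, adjusted p = 0.0284). The calls that ended were those of cldn1.S without either morpholino array, either wnt3a array or either uninjected array and of tp63.S without either morpholino array, either chordin array or either uninjected array. Those of krt19.S ended without either chordin array and of klf5.S without morpholino replicate 1 or either chordin array. The call of dsc3.S ended without either morpholino array, either chordin array or uninjected replicate 2. The keratin gene krt12.4.S had 2161 and 18245 in morpholino caps, 10613 and 857 in wnt3a caps, 3006 and 10939 in chordin caps and 31759 and 27384 in uninjected caps, so the arrays of each injected group lay apart and overlapped with the others. The summed signal of the epidermal list was 188175 and 223740 in morpholino caps and 191591 and 200334 in chordin caps, against 367715 and 328543 in uninjected caps. With each array left out, 2, 2, 3 and 4 epidermal copies rose and 1, 5, 0 and 0 fell, and scaled to the spike-in controls 2 rose and 14 fell.

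Ciliary and ionocyte genes were higher on morpholino replicate 2. The multiciliated cell list had 3 of 38 copies higher and 1 lower by limma (median 0.90). Of all symbols 6.14% were higher and 5.94% lower, so the list did not stand out by its calls. Its summed signal was 8306 and 21610 in morpholino caps, against 7719 and 11569 in chordin caps and 56261 and 61427 in uninjected caps. In morpholino caps 16 of its 38 copies were at least 4 times higher on replicate 2 than on replicate 1 and none the other way, and 2.15% of all symbols were as much higher on replicate 2. In chordin caps 5 of 38 were as much higher on replicate 2, with 1.21% of all symbols. Ccno.L, a cyclin-like gene of centriole amplification, had 115 and 871 in morpholino caps, against 70.1 and 263 in chordin caps. The 3 called higher were rfx2.S, a ciliary regulator (1.42), the centriole kinase plk4.L (0.86) and nme5.L (1.69), and foxn4.S, a regulator of multiciliated cells, was lower (-3.61). When each array was left out, 2, 1, 0 and 0 rose, and none rose scaled to the spike-in controls, where the change of plk4.L was -0.06. With any 1 array left out, foxn4.S was still called against chordin caps. Calls ended for rfx2.S and atp6v0d1.L without morpholino replicate 1 or either chordin array, for plk4.L without either morpholino array or either chordin array, for nme5.L without morpholino replicate 2, either wnt3a array, either chordin array or either uninjected array and for itpr1.S without either morpholino array, either chordin array or either uninjected array. Of 17 ionocyte copies none rose and 2 fell, summed signals being 10486 and 20850 in morpholino caps and 9824 and 12549 in chordin caps. At least 4 times higher on replicate 2 were 8 of 17 in morpholino caps and 7 of 17 in chordin caps. In wnt3a caps 6 of 17 were as much higher on replicate 1. The ionocyte regulator foxi1.L had 3.98 and 1507 in morpholino caps and 367 and 11.1 in wnt3a caps, against 37.5 and 346 in chordin caps and 6511 and 5845 in uninjected caps. Its order of replicates was the same in morpholino and chordin caps and the opposite in wnt3a caps. The 2 that fell, atp6v0d1.L (-1.45) and itpr1.S (-1.38), became 0, 1, 0 and 0 with each array left out.

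Mesoderm genes were higher on morpholino replicate 1. Of 21 copies 4 rose and none fell (median 1.52), and the 4 include wnt8a.L, cdx4.L and pcdh8l.S, which other lists hold, and wnt11b.L (2201 and 938 in morpholino caps, 20.1 and 57.7 in chordin caps, limma adjusted p = 0.00739). The call of wnt11b.L against chordin caps held with any 1 array left out. The summed signal of the list was 21699 and 7585 in morpholino caps and 6674 and 7583 in wnt3a caps, against 1406 and 2111 in chordin caps. In morpholino caps 9 of 21 copies were at least 4 times higher on replicate 1 than on replicate 2 and none the other way, and 1.24% of all symbols were as much higher on replicate 1. Tbxt.L (brachyury, a regulator of posterior mesoderm) had 1835 and 10.5 in morpholino caps, 110.1 and 6.87 in wnt3a caps and 15.3 and 3.45 in chordin caps. Actc1.L, a muscle actin gene, had 1709 and 32.4 in morpholino caps and 7.04 and 37.3 in chordin caps, and vegt.S, a T-box gene of mesoderm, 1363 and 32.6 in morpholino caps and 21.9 and 11.9 in chordin caps. These 3 were not called (adjusted p = 0.312, 0.223 and 0.188), and each was near background on morpholino replicate 2. The muscle regulator myod1.S had 232 and 16.0 in morpholino caps, against 174 and 229 in chordin caps. Under omission of each array, 3, 10, 2 and 3 copies rose. In morpholino caps 10 of 26 posterior neural copies were also at least 4 times higher on replicate 1, so the posterior counts move with the mesodermal ones, and the part of mesodermal cells in them was not tested.

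**Figure D5:**
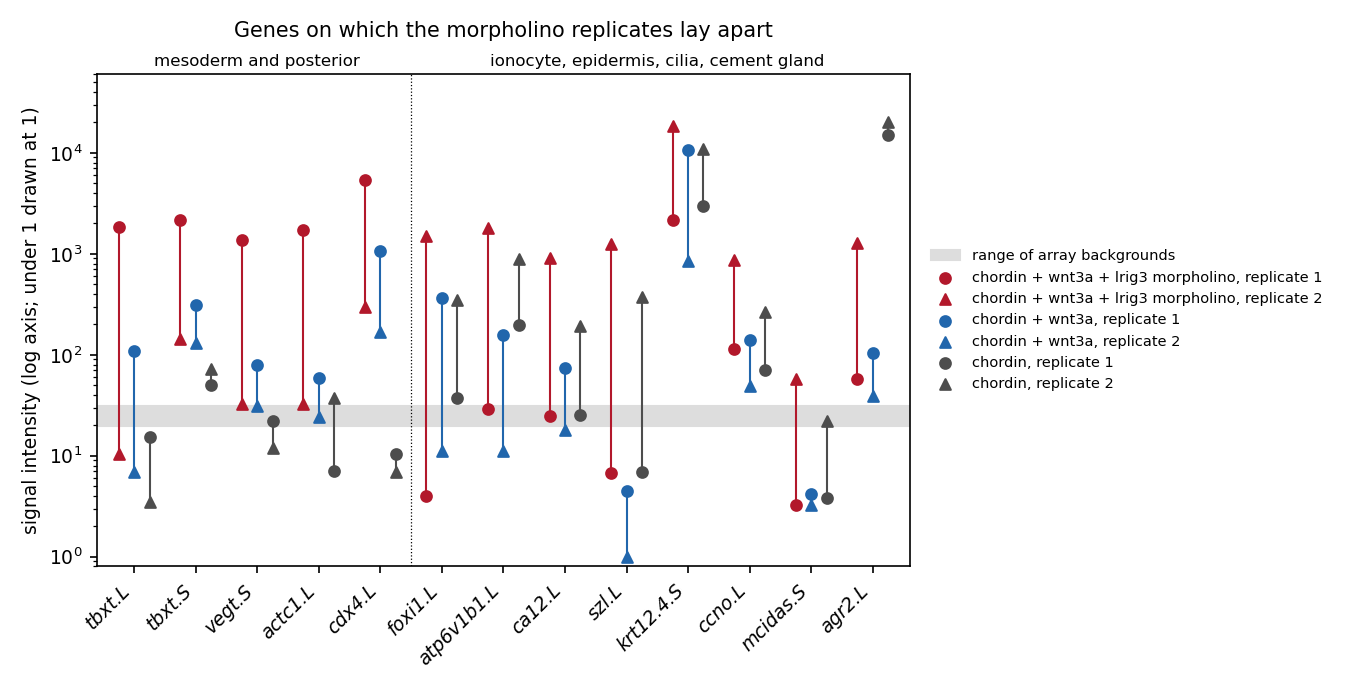
Signal intensity on a log axis for mesoderm and posterior genes (left of the dotted line) and for ionocyte, epidermal, ciliary and cement gland genes (right), with circles for replicate 1, triangles for replicate 2, and morpholino, wnt3a and chordin caps from left to right at each gene. The grey band spans the array backgrounds (19.5 to 30.8). In morpholino caps replicate 1 is the higher array for the genes on the left and replicate 2 for those on the right.

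The remaining lists held some genes already described. Dorsal mesoderm and organizer genes had 3 of 20 copies higher and 4 lower, with the BMP antagonist fst.L at 3.95 and the organizer gene gsc.L at least 3.5-fold lower (0.594 and 3.29 in morpholino caps, 72.4 and 173 in chordin caps, limma adjusted p = 0.0161). After dropping each array in turn, 2, 8, 2 and 2 were higher and 3, 4, 1 and 0 lower. Endoderm genes had 3 of 12 copies higher and 2 lower, among them foxa2.L, a forkhead factor of floor plate and endoderm, at least 3.87-fold higher (170.0 and 56.2 in morpholino caps, 378 and 199.9 in wnt3a caps, 4.77 and 6.42 in chordin caps, adjusted p = 0.0216). Cdx2.L, given above, and gata6.S (1.93, adjusted p = 0.0265) were also higher. The lower ones were frzb.L, given with the Wnt genes, and a2m.S, with 678 and 1391 in morpholino and 5551 and 6304 in chordin caps (-2.60, adjusted p = 0.0118). Foxa1.L (0.75) and foxa1.S (-0.40) were not called. Against chordin caps, fst.L, foxe3.L, lhx2.L and dmrta1.S kept their calls whichever array was left out. Sensitive to 1 array were the calls of gsc.L and foxa2.L without morpholino replicate 1 or either chordin array. The call of a2m.S ended without either chordin array, and that of gata6.S without either morpholino array or either chordin array. With each array left out, 0, 2, 0 and 0 were higher and 2, 2, 1 and 0 lower. Placode genes, of the sensory thickenings beside the anterior plate, had 3 of 22 copies higher and 3 lower, the lower ones being foxe3.L, lhx2.L and dmrta1.S, each at background in morpholino caps and at least 9.09-fold, 40.3-fold and 22.9-fold below chordin caps. The higher ones were both copies of irx1, given with the plate border, and ebf2.S (log2 change 2.36, adjusted p = 0.0169). The call of ebf2.S ended without morpholino replicate 1 or chordin replicate 1. Against wnt3a caps 6 placode copies were higher, among them sox2.L and both copies of sox3, and 0, 3, 3 and 3 with each array left out.

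Among the 10 largest rises and outside these lists was hbg1.L, a globin gene of the blood, with signals of 31178 and 27604 in morpholino caps and 14039 and 22989.9 in wnt3a caps, against 291 and 236 in chordin caps (6.78, SE 0.27, limma adjusted p = 7.19e-05). All arrays that carried wnt3a were far above the chordin arrays, and 1 of its 2 probe sets was called. Largest rises were named without overlap, so the separation of morpholino from chordin arrays was fixed by the choice and is not a further test. The other 9 of these rises were wnt3a.S, wnt8a.L, pnhd.L, pax3.S, hoxb2.S, hoxa2.S, cdx4.L and the 2 gbx2 copies, and the 10 largest falls were six6.L, vsx1.L, rax.S, rax.L, fezf2.L, six3.L, both copies of hesx1, ag1.S and lhx2.L. The falls were all genes of the forebrain, eye, cement gland or anterior placodes.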

How the data were processed

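RNA of 8 animal cap samples, 2 in each of 4 groups, was hybridised to Affymetrix arrays. The deposited table holds one intensity per probe set and array on a linear scale, made by the authors with MAS5 per the submitters' processing notes, with no version stated in the sources used here. Of 32635 probe sets, 96 manufacturer's controls were left out. Kept for testing were the 22000 above the 40th percentile of their own array on at least 2 arrays. Values were taken as log2(signal + 5.22), the added value being the 10th percentile of all signals, and fitted over all 8 arrays, with 4 residual degrees of freedom, with limma 3.58.1 (trend and robust moderation) in R 4.3.3, with Benjamini-Hochberg adjustment. The spread is thus shared by all groups. The number of arrays limits the precision.

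Of the probe sets without controls, 15495 had 1 gene symbol in the platform annotation, 279 had several and 16765 had none; 15384 were matched to RefSeq (Xenopus_laevis_v10.1) for current symbols. The brightest kept probe set stood for a symbol, and a symbol whose probe sets were called in opposite directions was not reported. The gene lists, their members and the comparison itself were chosen with earlier results of these data known. The rule for the genes the text names took the targeted and injected genes, the 10 largest called rises and falls without overlap, anchor genes and the largest called members of each list in both comparisons, and the 6 largest changes in each direction set apart from both other groups.

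Same-numbered arrays deviated together: the correlation of replicate 1 minus replicate 2 between groups was 0.172 to 0.505 over the pairs of groups. The main fit does not pair arrays, so its p-values take no account of this. Only the fit with the replicate block pairs arrays by that number, although the labels do not say what it marks. A signal ratio between gapdh controls for either end of the message also split by replicate number in every group. It lay between 1.26 and 1.41 for replicate 1, and for replicate 2 between 1.61 and 1.76. Alternatives were other pseudocounts (1 and 32), no filter, quantile normalization, scaling to 36 spike-in probe sets, the arrays of the comparison alone, a replicate block, plain moderation, the mean of a symbol's probe sets, and leaving out each array.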

Additional observations from a re-analysis of the deposited data

How the results depend on the processing

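The count of probe sets called in morpholino against chordin caps was 2504, and it became 4726 with the replicate block, 6286 with spike-in scaling and 1016 on the 4 arrays of the comparison alone. With 1 array left out it lay between 520 and 2165. The count in morpholino against wnt3a caps was 1077, and it became 3289 with the replicate block, 5577 with spike-in scaling (146 higher and 5431 lower) and 32 on its 4 arrays alone. With 1 array left out it lay between 0 and 462. The count in wnt3a against chordin caps was 1280, became 2031 with the replicate block, and lay between 449 and 1358 with 1 array left out. The other alternatives that count probe sets stayed within 1.5 times of each of these counts. The mean of a symbol's probe sets is counted in symbols and gave 1125, 508 and 607 of 8823 for these 3 comparisons, against 1066, 466 and 564 with the brightest probe set. Fewer arrays leave fewer residual degrees of freedom; other causes were not tested.

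Of 231 named genes, 22 lost their call in morpholino against chordin caps with spike-in scaling, 19 gained one and 2 changed sign: frs2.L to -0.34 and plk4.L to -0.0633, neither of them called there. With the replicate block 7 gained a call and 2 lost it, and it changed no other call of a named gene in that comparison. In morpholino against wnt3a caps the block added calls for 17 of the named genes and ended 0. Calls were lost for 59 and 35 genes without morpholino replicates 1 and 2, for 76 and 80 without chordin replicates 1 and 2, for 9 and 11 without wnt3a replicates 1 and 2, and for 24 and 24 without uninjected replicates 1 and 2. Genes near background are limited by signal, and their folds are lower bounds.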

Other observations

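A last set of genes was set apart by rule: called in the same direction in morpholino caps against chordin caps and against wnt3a caps, and not called between wnt3a and chordin caps, taking the 6 largest changes in each direction. A missing call there does not show that a gene was unchanged. Hes5.1.S was above chordin caps by 1.65 in wnt3a caps (limma adjusted p = 0.0541, and 0.0178 with the replicate block). The log2 difference of bax.S between wnt3a and chordin caps was -0.14. Besides both copies of hes5.1, the higher ones were olfml3.L, patl2.L, npr1.S and lgals4.1.s. Olfml3.L, a secreted olfactomedin-like protein gene, had signals of 128 and 193 in morpholino caps, 1.35 and 12.8 in wnt3a caps and 1.19 and 0.644 in chordin caps, at least 6.06-fold above chordin caps (limma adjusted p = 0.00862). Patl2.L, which in Xenopus oocytes encodes an RNA-binding translational repressor, had 146 and 194 in morpholino caps, 19.8 and 7.88 in wnt3a caps and 2.29 and 4.15 in chordin caps, at least 6.47-fold above chordin caps (adjusted p = 0.00529). The natriuretic peptide receptor gene npr1.S and the galectin gene lgals4.1.s were at least 4.43-fold and 6.81-fold above chordin caps.

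The lower ones were both copies of sst.1, pmp22.S, pphln1.L, nasp.S and bax.S. Sst.1.L, a somatostatin hormone gene, had signals of 109 and 266 in morpholino caps, 1592 and 2556 in wnt3a caps and 1560.0 and 3859 in chordin caps, with a log2 change of -3.80 from chordin caps (SE 0.55, limma adjusted p = 0.0107) and -3.52 from wnt3a caps (adjusted p = 0.0270). Sst.1.S had 11 and 32.1 in morpholino caps, 208 and 428 in wnt3a caps and 229 and 954 in chordin caps (-4.27, adjusted p = 0.0208). In both copies replicate 2 was the higher array of every injected group. Pmp22.S, a myelin protein gene that the early crest also expresses, had 194 and 290.2 in morpholino caps, 1195 and 1325 in wnt3a caps and 1134 and 2672 in chordin caps (-2.85, adjusted p = 0.0192). The histone chaperone gene nasp.S and pphln1.L had log2 changes of -2.37 and -2.45 from chordin caps. Calls were lost for sst.1.L and pphln1.L without chordin replicate 2, for sst.1.S and pmp22.S without morpholino replicate 1 or chordin replicate 2 and for nasp.S without either chordin array.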
